A study of Mus musculus with 3 samples.

Results

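The genes of the core splicing machinery and of its main regulators were compared between the 3 germ layers of the mouse embryo at E7.5, the endoderm, the mesoderm and the epiblast. They were chosen by symbol as the genes beginning with Srsf, Hnrnp, Snrp, Sf3a, Sf3b, U2af, Lsm or Prpf, without *Snrpn*, an imprinted gene with 2, 0 and 3 reads in endoderm, mesoderm and epiblast (sets of 3 values are in this order throughout). Among 17633 genes detected in at least 1 library, 76 met this rule, and all 76 had reads in each layer. They were 11 genes of SR proteins, 18 of hnRNP proteins, 11 of Snrp proteins, 8 of SF3A and SF3B, 3 of U2AF, 12 of LSm proteins and 13 of PRPF proteins.

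Introns are removed from pre-mRNA by the spliceosome, a machine built anew on each intron from small nuclear ribonucleoproteins (snRNPs) and many further proteins. In each snRNP a ring of Sm proteins, or of LSm proteins in the case of U6, surrounds the snRNA. U2AF marks the end of the intron, SF3A and SF3B hold the U2 snRNP on the branch point, and PRPF proteins shape the tri-snRNP and the catalytic centre. SR proteins mostly promote the use of exons in which they bind, whereas hnRNP proteins often restrain the use of splice sites near theirs.

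The embryos were of the ICR strain, the labels name no mutation or treatment, and the samples differed in the germ layer taken. The layers were separated by hand after enzyme treatment, and the epiblast sample held neuroectoderm and primitive streak. RNA of each layer was pooled from many embryos and gave 1 library, so that the differences below have no replicate check and the calls compare 2 libraries, not 2 germ layers as such. In such bulk samples, fewer cells of a type and less RNA per cell cannot be told apart.

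The libraries held 40.8 M to 42.7 M uniquely mapped reads on genes. RPKM is a gene's reads divided by its length in kilobases and by the library total, and it allows levels of different genes to be compared. The endoderm markers *Sox17*, *Foxa2* and *Cer1* were highest in endoderm. *Foxa2* had RPKM 44.0 in the endoderm library, 1.39 in the mesoderm library and 2.58 in the epiblast library. *Cer1* had 137.9, 47.4 and 0.659. The mesoderm list (*Foxf1a*, *Kdr*, *Tbx6* and *Mesp1*, summed RPKM 5.76, 163.1 and 48.2) was highest in mesoderm. Within it *Tbx6* had 3.77, 38.7 and 34.1. The epiblast list (*Sox2*, *Pax6*, *Pou5f1* and *Utf1*, 45.0, 121.5 and 647.5) was highest in epiblast. *Pou5f1* made up most of its sums in each library, with 36.4, 119.6 and 517.2. The endoderm library also carried all 6 visceral endoderm markers, with a summed RPKM of 5406 against 4.39 in mesoderm and 3.70 in epiblast, and these 6 genes took 1.45% of its reads. Summed RPKM was 48.0, 35.1 and 58.1 for 7 trophoblast markers (*Tpbpa* and *Prl3d1* at 0 in all 3 libraries), 3.39, 4.44 and 0.905 for 5 erythroid markers (*Hba-x* and *Hbb-y* at 0) and 0.989, 5.85 and 4.43 for 4 decidua markers (*Prl8a2* at 0). Among the trophoblast genes *Plac1* (RPKM 19.9, 6.25 and 0.569) was highest in endoderm, and *Cdx2* (18.4, 20.9 and 37.1) and *Tfap2c* (0.143, 0.807 and 5.65) were highest in epiblast. The visceral endoderm list and *Plac1* moved with the endoderm against the other 2 layers, as the splicing genes below did in the opposite direction. Their part in the result was not tested.

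The splicing genes were abundant in all 3 layers and lower in endoderm than in the other 2. Their share of all reads was 1.88% for endoderm, 2.66% for mesoderm and 2.70% for epiblast, and their median RPKM was 74.8, 109.5 and 105.7. The lowest of the 3 values was the endoderm value for 72 of the 76 genes. Among the 74 genes with RPKM>5 in any library it was the endoderm value for 72 (97.3%), whereas endoderm was lowest for 48% of all 9135 genes with that RPKM. Mesoderm was lowest for 0 of the 74 (21.5% of all genes) and epiblast for 2 of them (30.5% of all genes). The highest value was in epiblast for 42 genes, in mesoderm for 32 and in endoderm for 2, so that mesoderm and epiblast had no common order. The endoderm value stands to the left of the other 2 in nearly every line of the plot of RPKM by gene.

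**Figure D1:**
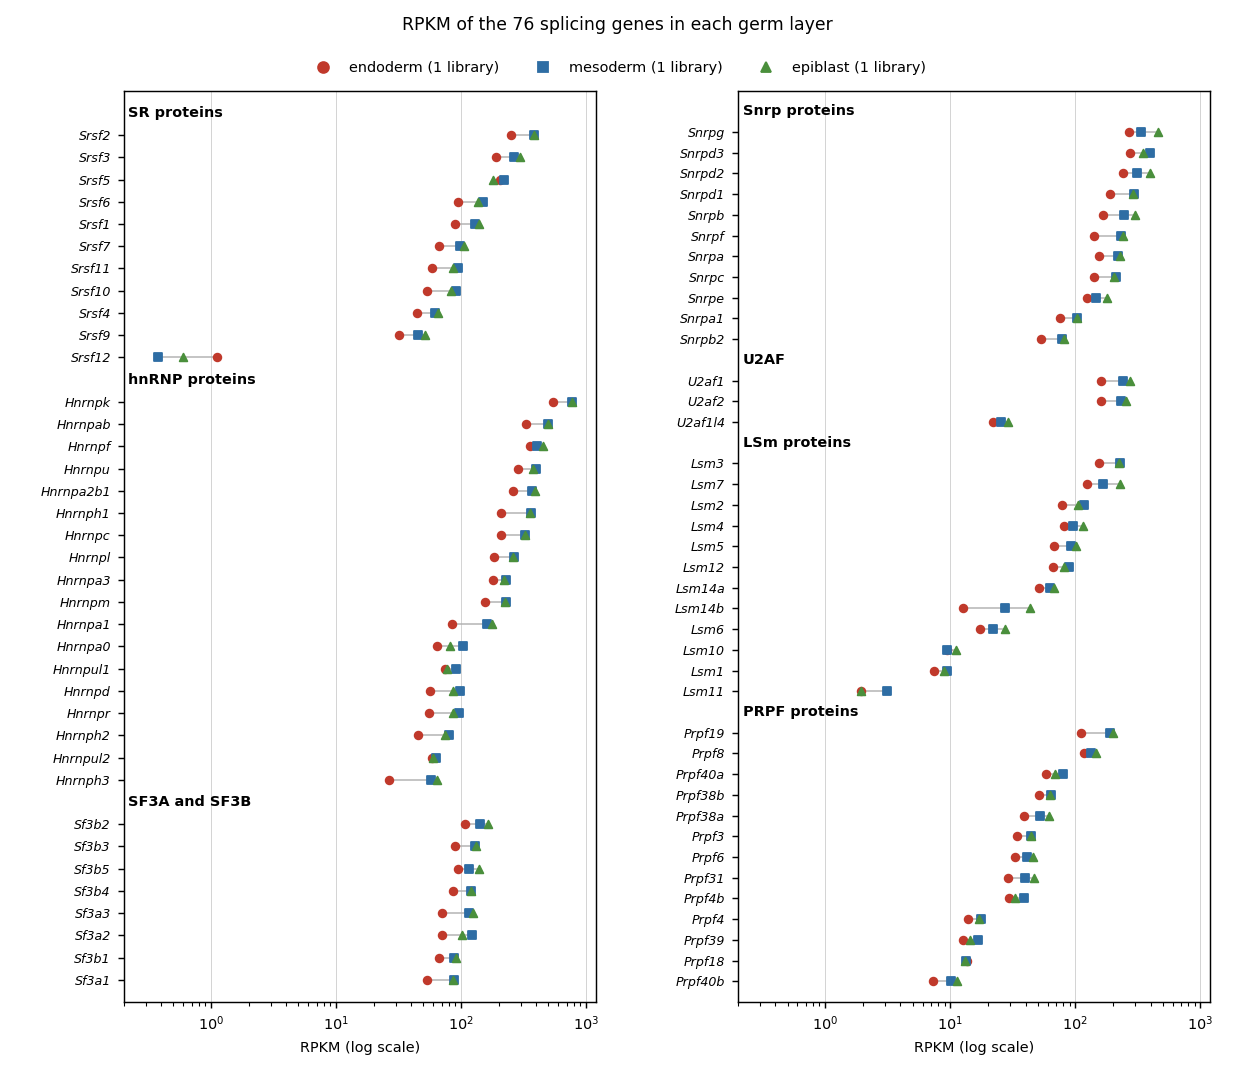
RPKM of each of the 76 genes (horizontal axis, log scale) in endoderm (circles), mesoderm (squares) and epiblast (triangles), 1 library each, with a grey line over the range of the 3 values, grouped by subfamily and ordered by mean RPKM. The endoderm circle is the lowest point for 72 genes, while squares and triangles lie close together for most genes.

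The differences were modest in size. The largest fold between any 2 layers had a median of 1.504 over the 76 genes, was above 1.5 for 39 and above 2 for 4, and was below 1.3 for 11. The criteria were an RPKM above 5 in at least 1 of the 2 libraries, a fold above 2 and an FDR below 0.001. By these criteria, 2 members were higher in mesoderm than in endoderm (8.56% of the genes tested) and 3 were higher in epiblast than in endoderm (8.94% of the genes tested). None of the members was higher in endoderm, against 14.4% of the genes tested in the first comparison and 15.7% in the second. With 74 members tested, these are smaller shares than among all genes in each direction. The 2 calls against mesoderm (*Hnrnph3* and *Lsm14b*) fell just short of 2-fold with the libraries scaled by the median of ratios, and edgeR's exact test with an assumed coefficient of variation of 0.2 called 0 members against mesoderm and 1 (*Lsm14b*) against epiblast. The share of all genes passing at these 2 settings is not given here, so their member counts have no background. Both comparisons share the endoderm library.

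With Fold Change>1.5 the members higher in mesoderm than in endoderm numbered 21 of 74 (28.4%, against 18.1% of all genes tested), and those higher in epiblast than in endoderm 32 (43.2%, against 20.1%). At this fold, 0 members were higher in endoderm, where 21.8% and 24.2% of all genes were. These counts moved with the scaling of the libraries. Scaled by the median of ratios, 13 members passed in each comparison, or 17.6% against 13.9% and 15.4% of all genes, which is close to the background. The upper quartile gave 44.6% and 68.9% of members (21.4% and 27.6% of all genes), and the same RPKM total 24.3% and 21.6% (16.8% and 16.04% of all genes). Scaled by the median of ratios, the ratio to mesoderm was still below 1 for 71 of the 76 genes (48.7% of all genes tested) and that to epiblast for 70 (48.0%). In the same scaling 0 members were more than 1.5-fold higher in endoderm, where 24.8% and 27.4% of all genes were.

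As a group, the members had a median log2 ratio of endoderm to mesoderm of -0.49, where all genes tested had -0.10. The median log2 ratio of endoderm to epiblast was -0.55, where all genes had -0.08. The middle 50% of the members lay between -0.62 and -0.36 in the first comparison and between -0.66 and -0.38 in the second, a range much narrower than that of all genes (-0.45 to 0.45 and -0.49 to 0.55). Abundant genes in general were somewhat lower in endoderm: the 1996 genes with RPKM>50 in any library had medians of -0.21 and -0.24, and the 61 members at that level -0.53 and -0.57. Between mesoderm and epiblast the members' median was -0.01 (0.02 for all genes), with 43 of 76 ratios below 1. The cumulative plot shows how steeply the members' curve climbs beside that of all genes.

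**Figure D2:**
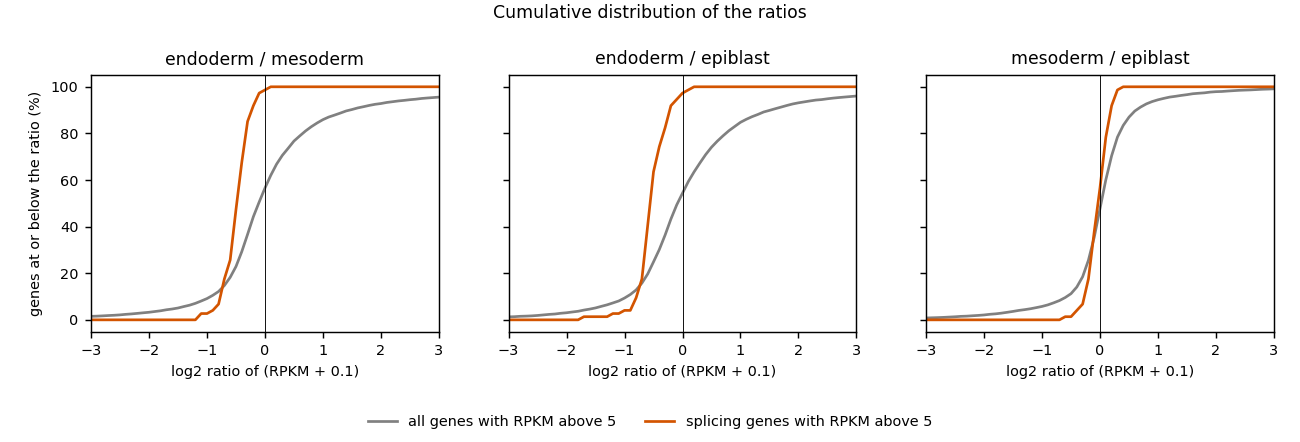
Percentage of genes (vertical axis) with a log2 ratio at or below the value on the horizontal axis, for the 74 splicing genes (orange) and all 9135 genes (grey) with RPKM>5 in any library, in each pair of germ layers. In both comparisons with endoderm the orange curve climbs left of 0 around medians near -0.5, while in mesoderm against epiblast it climbs at 0.

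Genes of SR proteins, which carry an RNA-binding domain and a tail rich in arginine and serine, had median log2 ratios of -0.53 (endoderm to mesoderm) and -0.62 (endoderm to epiblast). *Srsf2*, which acts in exon recognition and was the most abundant of them, had RPKM 249 in endoderm, 380 in mesoderm and 382 in epiblast. *Srsf3*, the smallest SR protein and an mRNA export adaptor, had RPKM 191, 267 and 295. Both were lowest in endoderm and about equal in the other 2 layers. *Srsf10*, a splicing regulator controlled by its phosphorylation, had RPKM 53.2, 90.7 and 83.7, which was 1.71-fold higher in mesoderm than in endoderm (95% exact counting interval 1.66 to 1.76). *Srsf11* had 58.5, 94.2 and 86.7. Counting intervals cover the sampling of reads only, not differences between embryos or libraries.

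*Srsf5* and *Srsf12*, named here after their values were seen, did not have this order. *Srsf5* had RPKM 204, 219 and 181, so that epiblast was its lowest layer and the level in endoderm lay between the other 2. *Srsf12*, close in sequence to *Srsf10*, had RPKM 1.13, 0.375 and 0.598 from 138, 45 and 75 reads. It was the only SR gene with its highest value in endoderm, at a level under the RPKM minimum of the criteria. With RPKM>1 in place of RPKM>5 it met them, as 1 of 3 members in endoderm against mesoderm. No share of all genes is given here for that minimum, so this count has no background. All the other 9 SR genes were lowest in endoderm.

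All 18 hnRNP genes were lower in endoderm than in mesoderm and in epiblast, with medians of -0.56 and -0.55 on the log2 scale. *Hnrnpk*, a binder of C-rich RNA, had the highest level of all members with RPKM 542, 775 and 775. *Hnrnpab*, a partner of AU-rich RNA, followed by mean RPKM with 333, 499 and 496. In both, mesoderm and epiblast differed by less than 1.3-fold, as in 71 of the 76 genes.

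The family of *Hnrnph1*, *Hnrnph2*, *Hnrnph3* and *Hnrnpf*, whose proteins bind runs of G, had medians of -0.81 and -0.74 and was uneven within. Both medians lay below those of the A and B genes taken with *Hnrnpd* (-0.63 and -0.58). *Hnrnph3* had RPKM 26.8, 57.9 and 64.7. It was thus 2.16-fold higher in mesoderm (counting interval 2.06 to 2.27) and 2.42-fold higher in epiblast (2.31 to 2.54) than in endoderm, and met the criteria in both comparisons. *Hnrnph1* had RPKM 207, 363 and 354, and *Hnrnph2* had 45.6, 80.5 and 75.03. These 2 genes were thus between 1.64-fold and 1.76-fold over endoderm in the other layers. *Hnrnpf*, by contrast, had RPKM 353, 405 and 451, or 1.15-fold and 1.28-fold over endoderm. Of its 50-base windows 51.9% were found at other loci too, against 30.9% for *Hnrnph2*, 5.06% for *Hnrnph1* and 0 for *Hnrnph3*. *Hnrnph3* lies on chromosome 10 (GRCm38, chr10:63014664-63024217, minus strand), and its exons overlap those of *Rufy2* in the annotation. Strand use in counting is not given in the sources used here, so that reads of overlapping genes cannot be told apart.

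*Hnrnpa1* (chr15:103240432-103246692, plus strand), which often favours exon skipping, had RPKM 85.2, 162 and 177. Epiblast was 2.07-fold over endoderm (2.02 to 2.14) and met the criteria, while mesoderm at 1.90-fold did not. The call in epiblast was lost with the libraries scaled by the median of ratios or to the same RPKM total. The other A and B genes, *Hnrnpa0*, *Hnrnpa2b1*, *Hnrnpa3* and *Hnrnpab*, were 1.27-fold to 1.60-fold higher in mesoderm than in endoderm. *Hnrnpd*, which was grouped with them, was 1.73-fold higher. At the other end, *Hnrnpul1* and *Hnrnpul2*, relatives of the nuclear scaffold protein gene *Hnrnpu*, had nearly level values (RPKM 74.7, 90.4 and 77.0 for *Hnrnpul1* and 58.9, 63.2 and 59.9 for *Hnrnpul2*). The ratio of epiblast to endoderm was 1.02 for *Hnrnpul2*, with a counting interval of 0.995 to 1.04, and 1.33 for *Hnrnpu*.

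The 7 genes of the Sm ring and the 4 Snrp genes of the U1 and U2 snRNPs were all lower in endoderm. *Snrpg*, a ring member, had RPKM 267, 333 and 461, and *Snrpd3* had 275, 397 and 348. The pair had different orders, with *Snrpg* highest in epiblast and *Snrpd3* in mesoderm. *Snrpb*, which encodes the ring protein SmB, had RPKM 166, 246 and 302, or 1.82-fold more in epiblast than in endoderm (1.77 to 1.87). *Snrpf* had 142, 234 and 241. *Snrpa*, *Snrpc*, *Snrpa1* and *Snrpb2*, for proteins of U1 and U2, kept closer together, with 1.37-fold to 1.502-fold higher RPKM in mesoderm and 1.38-fold to 1.53-fold in epiblast than in endoderm.

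Genes of U2 binding at the branch point had medians of -0.51 and -0.56. In mesoderm the 3 SF3A genes were 1.64-fold to 1.73-fold over endoderm and the 5 SF3B genes 1.23-fold to 1.45-fold, so that these ranges did not overlap. Exons of *Sf3a2*, *Sf3b2*, *Sf3b3* and *Sf3b4* overlap those of other genes in the annotation. For *Sf3b4*, 49.3% of the 50-base windows also occur at other loci. *Sf3a2* had RPKM 70.8, 123 and 103, and *Sf3a3* had 70.5, 117 and 125. Among the SF3B genes, *Sf3b2* had 109, 142 and 165 and *Sf3b3* had 89.4, 130 and 131. In epiblast the ranges met, with 1.45-fold to 1.77-fold for SF3A and 1.36-fold to 1.52-fold for SF3B. The U2AF subunits had RPKM 161, 243 and 274 for the small subunit gene *U2af1* and 160, 232 and 252 for the large subunit gene *U2af2*. Of their 50-base windows, 62.8% and 29.9% also occur at other loci, so that unique reads may understate the 2 levels unequally. *U2af1l4*, a paralog of the small subunit, was lower in level (RPKM 21.9, 25.5 and 28.9). All 3 had the order endoderm, mesoderm, epiblast.

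The 12 LSm genes had medians of -0.43 and -0.47, and the largest ratio of all members was among them. *Lsm14b* (chr2:180024987-180035465, plus strand), whose protein acts with cytoplasmic mRNA in the control of translation and not in the snRNP rings, had RPKM 12.6, 27.2 and 43.4. Mesoderm was 2.16-fold (2.02 to 2.30) and epiblast 3.43-fold over endoderm (3.23 to 3.65), and both met the criteria. It was also the only member more than 1.5-fold different between mesoderm and epiblast with RPKM>5 (1.59-fold higher in epiblast, 1.52 to 1.67), a direction in which 8.57% of all genes passed. Its paralog *Lsm14a* had RPKM 51.0, 63.1 and 67.4, a far smaller difference.

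Ring members of the U6 snRNP included *Lsm3* with RPKM 155, 228 and 225 and *Lsm7* with 123, 166 and 229. *Lsm7* was 1.86-fold over endoderm in epiblast (1.77 to 1.95). *Lsm10* and *Lsm11*, for proteins of the U7 snRNP that trims histone mRNA ends, were low, with RPKM 9.38, 9.43 and 11.1 and 1.95, 3.09 and 1.92. *Lsm11*, named after its values were seen, had its lowest value in epiblast, within the counting error of endoderm (ratio 0.985, interval 0.871 to 1.11).

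PRPF genes differed least, with medians of -0.39 and -0.31. *Prpf19*, the ubiquitin ligase that names the Prp19 complex, had RPKM 111, 189 and 199, or 1.79-fold more in epiblast than in endoderm. *Prpf8*, the protein at the catalytic centre, had 117, 132 and 145, or 1.24-fold. *Prpf31*, of the tri-snRNP, had 29.2, 39.7 and 47.1. *Prpf18*, a factor of the second splicing step named after its values were seen, had RPKM 13.7, 13.3 and 13.2, and each of its counting intervals included 1. It was the only member with RPKM>5 highest in endoderm.

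**Figure D3:**
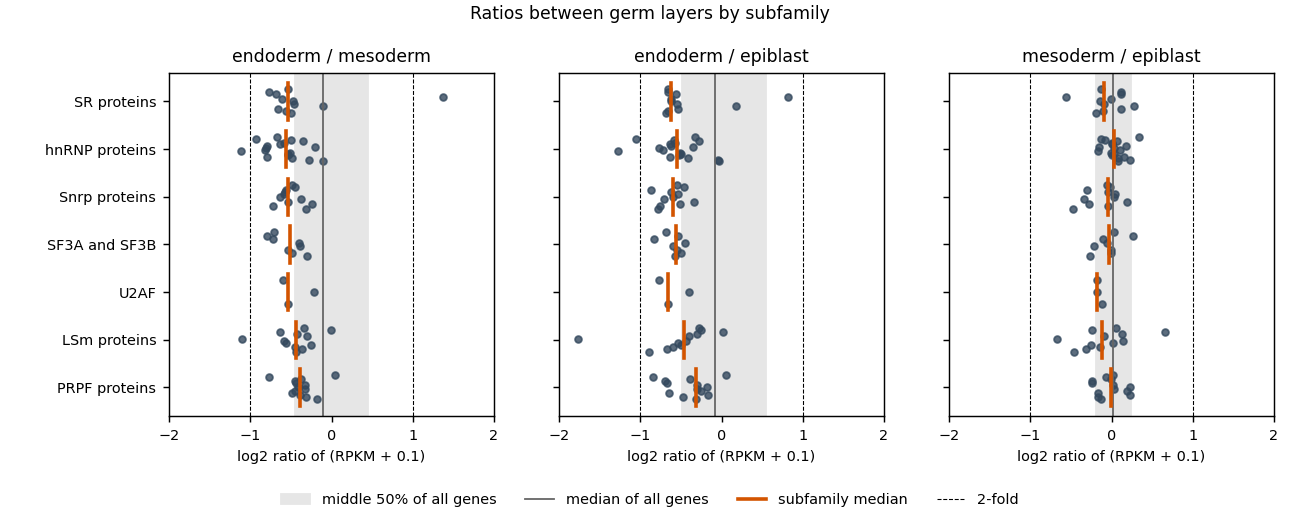
Log2 ratio of (RPKM + 0.1) for each gene (points) by subfamily, with the subfamily median (orange), the median (grey line) and middle 50% (grey band) of all genes tested, and dashed lines at 2-fold, for the 3 pairs of germ layers. Every subfamily median is left of the all-gene median in both comparisons with endoderm, from -0.31 for PRPF in endoderm against epiblast to -0.65 for U2AF in the same comparison.

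Set side by side, the 7 subfamilies had summed RPKM 1.34-fold (PRPF) to 1.46-fold (U2AF) higher in mesoderm than in endoderm and 1.39-fold (PRPF) to 1.62-fold (U2AF) higher in epiblast. No subfamily was thus without the difference, and the ratio of the sums over all 76 genes was 1.42 and 1.48. No test between subfamilies is possible with 1 library per layer, and genes of a subfamily are not replicates.

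Mesoderm and epiblast differed little for most members, and 0 members met the criteria between them, where 5.30% of all genes were higher in mesoderm and 5.02% in epiblast. At a fold above 1.5 the count was 0 higher in mesoderm (10.1% of all genes) and 1, *Lsm14b*, higher in epiblast. The members more than 1.3-fold apart, chosen by that value, were *Lsm14b*, *Lsm7*, *Snrpg* and *Srsf12*, higher in epiblast, and *Lsm11*, higher in mesoderm. All the others differed by less. The Sm ring had a median log2 ratio of mesoderm to epiblast of -0.27, the LSm ring group -0.15 and the hnRNP genes 0.03. The LSm ring group was the 7 genes *Lsm1* to *Lsm7*. It thus held *Lsm1*, of the mRNA decay ring, while *Lsm8* was not among the members. Most of these ring genes were under 1000 bases, but *Snrpb* (1121 bases), *Lsm1* (2360) and *Lsm6* (3801) were not. Gene length moved with the ratio of mesoderm to epiblast. The 16 members under 1000 bases with RPKM>5 had a median of -0.18 and all 726 such genes -0.14, while the 58 longer members had -0.01 and all 8409 longer genes 0.03. Its part in the ring genes' ratio was not tested.

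Unique reads undercount genes that have close copies. Of the members, 37 share at least 1 stretch (window) of 50 bases of their transcript with an annotated pseudogene elsewhere. More than 10% of the windows were shared for 21 members and 0 for 35. The largest shares were those of *U2af1* (62.8%), *Lsm7* (62.8%) and *Hnrnpf* (51.9%). For *Hnrnpa1* 46.4% of the windows occurred at 19 other genes, 18 of them pseudogenes. Without the 21 genes, the median log2 ratio relative to all genes was -0.38 (endoderm to mesoderm) and -0.46 (endoderm to epiblast), against -0.39 and -0.47 with them.

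Coverage, the percentage of the gene length with reads, was 90% or more in all 3 libraries for 64 members and below 80% in any for 5. *Srsf12*, with the fewest reads, was covered to 82.4%, 47.7% and 63.8% of its length in endoderm, mesoderm and epiblast. *Lsm1*, of the ring that acts in mRNA decay, was covered to 53.6%, 74.5% and 54.1%, and *Hnrnpa1* to 68.7%, 73.4% and 70.9%. Coverage hardly differed between the layers for *Snrpf* (50.3%, 50.2% and 50.2%) and *Hnrnph3* (61.4%, 61.1% and 61.1%). Of these 5, *Srsf12*, *Lsm1* and *Hnrnph3* shared 0 windows with other loci, so that low coverage and shared sequence did not go together in them. RPKM levels of these 5 genes are therefore uncertain, since the length in the divisor is only partly covered, while the same length enters all 3 layers.

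**Figure D4:**
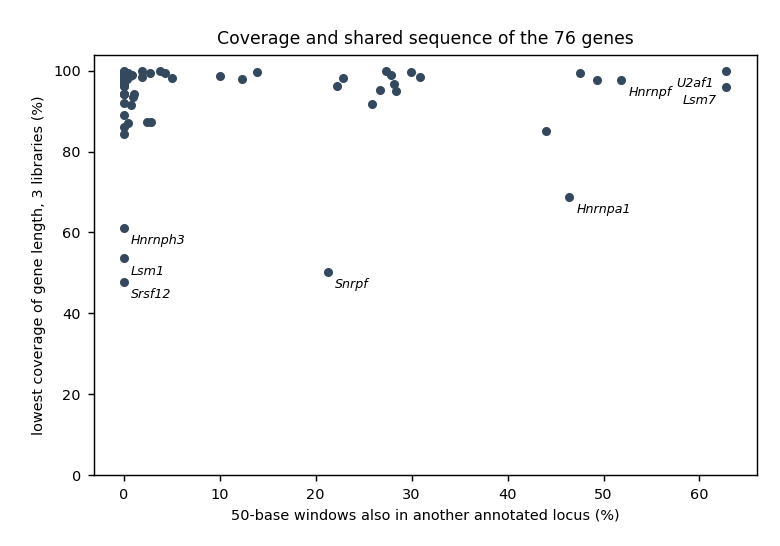
Lowest coverage of the gene length over the 3 libraries (vertical axis, %) against the percentage of 50-base transcript windows that also occur in another annotated locus (horizontal axis), 1 point per gene. Most genes lie near the top at any share of common windows, and the 5 genes below 80% include 3 with no shared window.

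The letters upstream of the start sites were read for 65 of the 76 genes, with 85 windows of 250 bases from RefSeq (GRCm38.p6). The windows of the 3 genes that met the criteria and of *Srsf5*, which was not lowest in endoderm, are shown as examples of genes with and without the common order. Capitals mark matches on either strand to 3 motifs. The GC box was searched as GGGCGG. The CCAAT box was searched by the letters of its name. The ETS core was searched as CCGGAAG.
Hnrnph3: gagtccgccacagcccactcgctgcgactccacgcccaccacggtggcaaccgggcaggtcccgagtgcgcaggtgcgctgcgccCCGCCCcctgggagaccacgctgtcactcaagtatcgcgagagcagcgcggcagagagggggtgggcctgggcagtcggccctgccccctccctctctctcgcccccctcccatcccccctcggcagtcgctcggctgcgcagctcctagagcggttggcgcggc
Hnrnpa1: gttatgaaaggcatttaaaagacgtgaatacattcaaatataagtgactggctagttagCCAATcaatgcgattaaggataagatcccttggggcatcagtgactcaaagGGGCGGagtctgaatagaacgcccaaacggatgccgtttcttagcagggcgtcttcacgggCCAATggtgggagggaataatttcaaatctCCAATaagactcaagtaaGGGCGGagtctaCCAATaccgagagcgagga
Lsm14b: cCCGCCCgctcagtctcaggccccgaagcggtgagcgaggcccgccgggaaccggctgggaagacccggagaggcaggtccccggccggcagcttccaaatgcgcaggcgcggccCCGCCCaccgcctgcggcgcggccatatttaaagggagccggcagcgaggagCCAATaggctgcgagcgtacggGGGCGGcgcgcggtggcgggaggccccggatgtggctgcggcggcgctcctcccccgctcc
Srsf5: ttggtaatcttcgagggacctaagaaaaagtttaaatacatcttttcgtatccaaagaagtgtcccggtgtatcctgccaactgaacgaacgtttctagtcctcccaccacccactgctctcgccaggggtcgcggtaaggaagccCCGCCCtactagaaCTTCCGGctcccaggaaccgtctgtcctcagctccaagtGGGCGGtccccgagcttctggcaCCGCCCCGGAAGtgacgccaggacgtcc
These are chr10:63023850-63024099 (minus strand), chr15:103240147-103240396, chr2:180024737-180024986 and chr12:80945249-80945498 (plus strand), read 5′ to 3′ toward the RefSeq start site. The *Hnrnpa1* and *Lsm14b* windows held CCAAT and GC boxes, that of *Hnrnph3* a GC box alone of the 3 and that of *Srsf5* GC boxes and ETS cores.

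Over all windows, the GC box occurred in 64.7% of the members' and in 60.9% of the 8532 windows of genes with RPKM>5, and in 32.7% of all 32851 windows. The CCAAT box was found in 47.1% of the members' windows against 35.9% and 33.8%, and the ETS core in 25.9% against 14.9% and 6.91%. A TATA box (TATAAA) was seen in 5.88%, near the 5.81% of expressed genes. The median GC content was 60.8% for members, 60.4% for expressed genes and 52.4% for all. Several genes have overlapping windows, and some matches overlap each other. A match of letters describes the sequence and not a bound site.

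Genes of the same pathway outside the symbol rule gave similar medians. Of 98 genes in 8 lists, 96 had reads under the listed symbols (all but *Gemin2* and *Ptbp3*, the latter listed as *Rod1*), with median log2 ratios of -0.45 (endoderm to mesoderm), -0.44 (endoderm to epiblast) and -0.03 (mesoderm to epiblast). The ratio was below 1 for 92 and 94 of them (95.8% and 97.9%) in the comparisons with endoderm, against 56.0% and 54.0% of all genes tested. By list, the medians ran from -0.60 and -0.64 for the 4 splicing helicases to -0.27 and -0.28 for SR protein kinases and SR-like proteins, with -0.44 and -0.47 for 16 further U snRNP proteins, -0.40 and -0.39 for 10 factors of splice site recognition, -0.35 and -0.37 for 18 genes of the Prp19 complex and catalytic step, -0.54 and -0.52 for proteins close to hnRNP, -0.51 and -0.53 for snRNP assembly and -0.44 and -0.51 for the exon junction.

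The criteria were met by 2 of the 96 as lower in endoderm than in mesoderm and by 4 as lower than in epiblast, fewer than the 8.56% and 8.94% of all genes tested. *Ptbp2*, the neural polypyrimidine tract protein, had RPKM 11.2, 28.9 and 40.0, and *Pcbp3*, a poly(C) binder, 5.42, 13.2 and 16.5. Both passed against mesoderm and epiblast. *Ddx39b*, the helicase that assists U2AF, had RPKM 182, 332 and 367 and *Gemin4*, of the SMN complex that loads Sm rings, 22.6, 38.9 and 48.1, and these passed against epiblast alone, with the difference between the comparisons not tested. *Rod1*, the paralog of *Ptbp2* now called *Ptbp3*, went the other way with RPKM 25.6, 15.95 and 10.9. It was 2.35-fold higher in endoderm than in epiblast and met the criteria. No other gene of the 96 was called higher in endoderm, where 15.7% of all genes tested were in that comparison. None of the 96 met the criteria between mesoderm and epiblast.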

How the data were processed

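The authors made 1 paired-end RNA library per germ layer. The authors deposited counts of uniquely mapped reads per gene, with RPKM, gene length and coverage as a percent of that length. The submitters' processing notes name TopHat, mm10 and mm9, and the paper states TopHat with GRCm38 for its splicing analysis. The aligner, annotation, counter and strand setting of the gene tables are not given in the sources used here. No per-sample column was left out.

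The deposited RPKM values were used without further scaling, and log2 ratios were taken of RPKM + 0.1. Calls followed the criteria of the paper (an RPKM above 5, a fold above 2 and an FDR below 0.001). The RPKM minimum was applied here to at least 1 of the 2 libraries compared, a detail that the paper does not state. The FDR was computed from the Audic-Claverie exact test (two-sided) after Benjamini-Hochberg adjustment over all genes with a read, and it compares 2 libraries. Without replicates no dispersion can be estimated for a quasi-likelihood test, and edgeR's exact test with an assumed coefficient of variation of 0.2 or 0.4 served as an alternative. Ratios have 95% exact binomial counting intervals.

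The members and lists were chosen with earlier results of these data known. Named genes were those called, the 2 most abundant and the 2 with the largest ratio in each subfamily, those of lowest coverage and, outside the rule, called genes of the 8 pathway lists. The others are said to be named after their values were seen, or illustrate a subfamily. Gene positions and 50-base transcript windows came from GENCODE M21 (GRCm38) and promoter windows from RefSeq (GRCm38.p6). Of the deposited gene lengths, 7 of 76 equalled that of a GENCODE transcript and 46 were within 50 bases. The software was edgeR 4.0.16 under R 4.3.3, and SciPy 1.17.1, numpy 2.4.6, pandas 2.3.3 and matplotlib 3.10.9 under Python 3.11.15. The splicing events and the microarray were not analysed here.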

Additional observations from a re-analysis of the deposited data

How the results depend on the processing

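Members that met the criteria numbered 2 in endoderm against mesoderm and 3 in endoderm against epiblast. They numbered 21 and 32 with Fold Change>1.5, 0 and 0 with Fold Change>4, 0 and 2 with the median of ratios, 0 and 1 (*Lsm14b*) in edgeR's exact test at a coefficient of 0.2 and 0 and 0 at 0.4. Without the 12 members below 90% coverage they numbered 1 and 1. Without the 26 members whose exons overlap another gene, chosen after seeing the data, they numbered 1 and 2. Between mesoderm and epiblast the count was 0, and 1 with Fold Change>1.5. The other alternatives left the counts within 1.5 times. No share of all genes is given for Fold Change>4, edgeR's test or 2-fold with the median of ratios. Those counts thus have no background.

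Members over 1.5-fold lower in endoderm numbered 21 against mesoderm and 32 against epiblast. Under scalings crossed with this fold after seeing the data they numbered 13 and 13 with the median of ratios, 33 and 51 with the upper quartile and 18 and 16 with the same RPKM total. These scalings moved the log2 ratios of endoderm by 0.11 and 0.11, -0.07 and -0.13, and 0.03 and 0.09.

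The members' median log2 ratio relative to all genes with RPKM>5 was -0.39 (endoderm to mesoderm), -0.47 (endoderm to epiblast) and -0.03 (mesoderm to epiblast). It was -0.30, -0.31 and 0.028 against genes with RPKM>50, the last reversed in sign, and -0.41, -0.48 and -0.070 for summed RPKM. Without members with exon overlap it was -0.36, -0.50 and -0.10, and without members sharing over 10% of windows -0.38, -0.46 and -0.03. With the *Snrnp* genes and older symbols it was -0.46 in endoderm against epiblast. Between mesoderm and epiblast it was -0.026 with genes of RPKM>1 as background and -0.026 without members below 90% coverage. The cause of these shifts was not tested. No paired analysis was possible because each germ layer has 1 library and the labels give no replicate numbers, and no library could be left out for the same reason.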
